A study of Bos taurus with 6 samples.

Results

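The genes described are 9 that encode laminin chains or proteins bound to laminin in basement membranes, chosen by symbol from the 28200 rows of a count table, with each symbol on 1 row. They are the laminin alpha chain genes LAMA3 and LAMA5, the beta chain genes LAMB1, LAMB2 and LAMB3, the gamma chain gene LAMC1, and NID1, HSPG2 and AGRN. RNA was sequenced from KLF6 knockout bovine mammary epithelial cells (3 libraries) and from wild-type cells of the same kind (3 libraries). All were primary cells taken by enzyme digestion from the mammary tissue of Holstein cattle, and the knockout was made with CRISPR/Cas9. The labels give neither the animals' age nor the number of animals, nor whether the edited cells were 1 clone or a mixed population. Nor do they tie the 3 libraries of a genotype to separate cultures, so every p-value measures the spread between libraries that may be technical repeats.

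Laminins are secreted trimers of 1 alpha, 1 beta and 1 gamma chain that polymerise into a sheet beneath epithelial cells. Nidogens and heparan sulfate proteoglycans such as perlecan tie this sheet to a network of collagen IV, and integrins and dystroglycan on the cell surface bind it. In the mammary gland the basement membrane separates the epithelium from the stroma, and contact with laminin is known to be needed for milk protein expression in cultured mammary cells. Which of these transcripts differ in level when the transcription factor gene KLF6 is disrupted is the question of the comparison.

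KLF6 itself stood at 224, 230.1 and 217 CPM in the knockout libraries, against 503, 496 and 558 CPM in the wild-type libraries. CPM is the number of counts per 1e+06 counts of a library after TMM scaling, which corrects for differences in composition. KLF6 fell 2.32-fold by the edgeR quasi-likelihood test (log2 fold change -1.21 ± 0.05 SE, adjusted p = 2.25e-13). Its RNA was thus lowered but still read in all knockout libraries, and a count summed over a gene cannot place the reads relative to the edit.

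The laminin genes did not move as 1 group. Of the 9 genes, 8 had enough counts to be tested, all 8 of them in both genotypes, and NID1 had 0 counts in all 6 libraries. LAMA3, LAMB3 and LAMC1 rose by 1.18-fold to 1.26-fold in knockout libraries, LAMA3 by less than the median of its chromosome, while LAMA5, LAMB2 and AGRN fell by 1.77-fold to 2.51-fold. LAMB1 and HSPG2 did not pass the test. In the edgeR quasi-likelihood fit of 13390 genes, with Benjamini-Hochberg adjusted p-values up to 0.05, 74.6% of all tested genes were called, 37.1% as higher and 37.6% as lower. With 3 members that rose and 3 that fell among 8 tested, the members' called share of 75.0% lies at that background, so the share itself says nothing particular about them. The CPM ranges of the genotypes did not overlap for these 6 genes, as for 76.2% of all tested genes. The median log2 fold change of the 8 genes was -0.11, beside -0.01 over all tested genes.

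**Figure D1:**
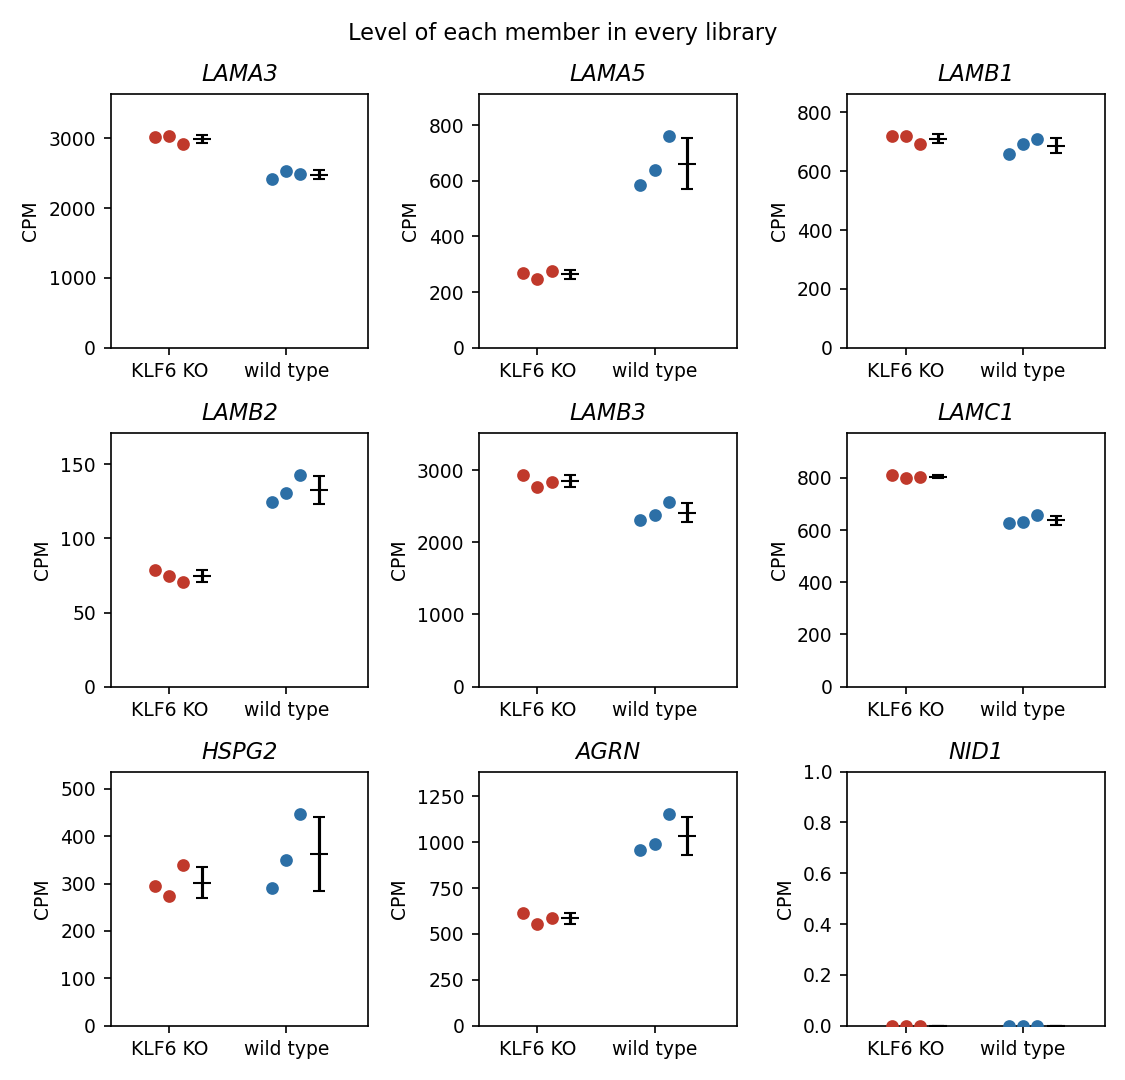
Level in CPM (vertical axes, from 0, scaled separately for each gene) of the 9 genes in 3 KLF6 knockout libraries (red, left) and 3 wild-type libraries (blue, right). Each point is 1 library, the bar beside the points is the mean with the SD. The 3 red points lie above the 3 blue points for LAMA3, LAMB3 and LAMC1 and below them for LAMA5, LAMB2 and AGRN, they overlap for LAMB1 and HSPG2, and NID1 is at 0 throughout.

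LAMA3 and LAMA5 are the alpha chains, which carry the globular domains that cell surface receptors bind. LAMA3 (ENSBTAG00000027181, chromosome 24, 32711020 to 32946065, minus strand) pairs with LAMB3 in the laminin that anchors hemidesmosomes of basal epithelial cells. Coordinates are those of the count table, whose genome build is not named in the labels or file headers. LAMA3 stood at 3010.4, 3034 and 2917 CPM in knockout libraries, against 2413, 2537 and 2485 CPM in wild-type libraries. Every knockout library lay above every wild-type library, and the spread within a genotype was small (2987 ± 61.8 CPM in knockout cells and 2478 ± 62.1 CPM in wild type, SD, n = 3 each). The rise was 1.21-fold, with a log2 fold change of 0.27 ± 0.04 (SE) and an edgeR adjusted p = 5.78e-06. A change of this size was common, since 71.2% of all tested genes differed by more. The 187 tested genes of chromosome 24 had a median log2 fold change of 0.37, so LAMA3 lay 0.10 below the middle of its own chromosome, and the part of the chromosome-wide difference in this rise was not tested.

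LAMA5 (ENSBTAG00000003061, chromosome 13, 54887682 to 54938873, plus strand) is the alpha chain of most adult epithelial basement membranes and pairs with LAMC1 and either LAMB1 or LAMB2. It stood at 269, 245 and 277 CPM in knockout libraries, against 583, 638 and 761 CPM in wild-type libraries. The highest knockout library thus reached less than the lowest wild-type library by a wide margin. LAMA5 had the largest change among the 9 genes, a 2.51-fold fall with a log2 fold change of -1.33 ± 0.10 (SE) and an edgeR adjusted p = 4.48e-06, and only 14.4% of all tested genes differed by more. Chromosome 13 as a whole had a median log2 fold change of 0.08 over 494 tested genes, in the other direction. Both alpha chain genes were therefore past the threshold with opposite signs.

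The opposite changes altered the makeup of alpha chain RNA. Per kilobase of the gene length given in the count table, LAMA3 stood at 306 ± 6.33 CPM in knockout cells and 254 ± 6.36 CPM in wild type, and LAMA5 at 29.5 ± 1.85 CPM in knockout cells and 74.0 ± 10.2 CPM in wild type (SD, n = 3 each). The per-length ratio of LAMA3 to LAMA5 was 10.2, 11.3 and 9.62 in knockout libraries, against 3.78, 3.64 and 2.98 in wild-type libraries, with no overlap. LAMA5 made up 8.81% ± 0.648 of the per-length RNA of these 2 alpha chains in knockout and 22.5% ± 2.25 in wild type. Their per-length sum, at 336 ± 4.92 CPM per kilobase in knockout and 328 ± 14.0 in wild type, overlapped between the genotypes. LAMA3 is known to give a short and a long transcript, which counts per gene do not separate, and its per-length level rests on 1 length for both.

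LAMB1, LAMB2 and LAMB3 are the beta chains. LAMB3 (ENSBTAG00000016542, chromosome 16, 73668603 to 73712367, plus strand) is found only in trimers with LAMA3. It stood at 2933, 2769 and 2831 CPM in knockout libraries, against 2305, 2372 and 2553 CPM in wild-type libraries. The groups did not overlap, although the highest wild-type library came near the lowest knockout library. LAMB3 rose 1.18-fold, with a log2 fold change of 0.24 ± 0.04 (SE) and an edgeR adjusted p = 8.65e-05, beside a median of 0.10 over the 418 tested genes of chromosome 16. LAMA3 and LAMB3 kept nearly the same proportion to each other, with a per-length ratio of LAMB3 to LAMA3 of 2.30 ± 0.0829 in knockout and 2.34 ± 0.117 in wild type (SD, n = 3 each).

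LAMB2 (ENSBTAG00000022635, chromosome 22, 50883645 to 50897890, plus strand) is a beta chain known best from the basement membranes of kidney glomeruli and neuromuscular junctions. It had the lowest mean level per length of the 8 genes in both genotypes, although in wild type its range overlapped that of HSPG2. Its level was 78.4, 74.6 and 70.3 CPM in knockout libraries, against 124, 131 and 143 CPM in wild-type libraries. All knockout libraries lay below all wild-type libraries. The fall was 1.78-fold, with a log2 fold change of -0.83 ± 0.06 (SE) and an edgeR adjusted p = 4.07e-10. LAMB2 made up 1.60% ± 0.0662 of the per-length beta chain RNA in knockout and 3.25% ± 0.0637 in wild type.

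LAMB1 (ENSBTAG00000011412, chromosome 4, 48985684 to 49062759, minus strand) is the beta chain of the widely expressed laminins that contain LAMC1. It stood at 719, 720.1 and 693 CPM in knockout libraries, against 659, 692 and 710 CPM in wild-type libraries, and the groups overlapped. LAMB1 did not pass the test, with a log2 fold change of 0.05 ± 0.04 (SE, 95% interval -0.04 to 0.14, edgeR adjusted p = 0.309). The interval leaves room for a rise of at most 0.14 on the log2 scale, smaller than the changes of LAMA3, LAMB3 and LAMC1 as estimated. Its level gave LAMB1 the second place among the beta chains per length, at 116 ± 2.47 CPM per kilobase in knockout and 112 ± 4.23 in wild type, far under LAMB3 at 702 ± 20.4 in knockout and 595 ± 31.7 in wild type.

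LAMC1 (ENSBTAG00000011966, chromosome 16, 64062643 to 64183738, plus strand) is the gamma chain of most laminin trimers, including those with LAMA5. It stood at 812, 800.3 and 803 CPM in knockout libraries, against 625, 629 and 657 CPM in wild-type libraries. LAMC1 had the smallest spread of the 8 genes in knockout libraries, with a coefficient of variation of 0.724% there and 2.72% in wild type. The rise was 1.26-fold, with a log2 fold change of 0.34 ± 0.04 (SE) and an edgeR adjusted p = 6.11e-07. LAMC1 and its partner LAMA5 thus changed in opposite directions, and the per-length ratio of LAMB1 to LAMC1 was 1.09 ± 0.0228 in knockout and 1.34 ± 0.0293 in wild type (SD, n = 3 each).

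Of the other laminin chain genes listed, LAMA4 had 35 counts over the knockout libraries and 0 over the wild-type libraries, at least 11.9-fold higher against a floor of 3 counts over the group, and was not tested after the filter. LAMA1 had 5 counts in knockout and 4 in wild type, and LAMC3 had 0 in all libraries.

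**Figure D2:**
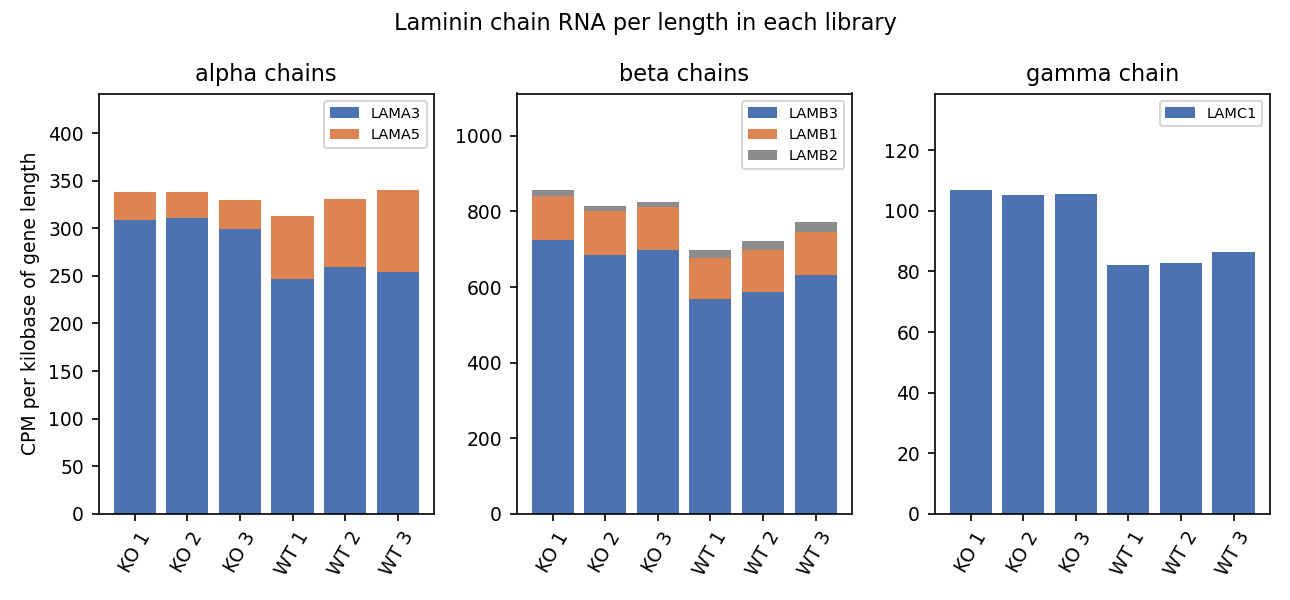
RNA of the 6 laminin chain genes of the set in CPM per kilobase of gene length (vertical axes, from 0) in each library, with the KLF6 knockout libraries (KO) left of the wild-type libraries (WT), stacked by gene within the alpha and beta chains, and LAMC1 alone in the gamma panel, each panel with its own scale. The LAMA5 segment is smaller in knockout than in wild type, the LAMA3 and LAMB3 segments are somewhat larger, and LAMC1 is higher, at 106 ± 0.767 against 83.8 ± 2.28 CPM per kilobase.

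HSPG2, AGRN and NID1 encode proteins that bind laminin. AGRN (ENSBTAG00000013191, chromosome 16, 51422628 to 51461967, minus strand) encodes agrin, a heparan sulfate proteoglycan that binds both laminin and dystroglycan and is known for clustering acetylcholine receptors at the neuromuscular junction. It stood at 611, 556 and 585 CPM in knockout libraries, against 959.8, 987 and 1154 CPM in wild-type libraries. The genotypes were far apart, although the wild-type libraries also differed among themselves (584 ± 27.7 CPM in knockout cells and 1034 ± 105 CPM in wild type, SD, n = 3 each). AGRN fell 1.77-fold, with a log2 fold change of -0.82 ± 0.06 (SE) and an edgeR adjusted p = 1.66e-08. It lies on the same chromosome as LAMB3 and LAMC1, both of which rose.

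HSPG2 (ENSBTAG00000017122, chromosome 2, 130906818 to 130976365, plus strand) encodes perlecan, the large proteoglycan that joins laminin, nidogen and collagen IV and stores growth factors. It stood at 294, 273 and 338 CPM in knockout libraries, against 291, 349.6 and 447 CPM in wild-type libraries. The groups overlapped, since wild-type replicate 1 lay below knockout replicates 1 and 3. HSPG2 did not pass the test, with a log2 fold change of -0.26 ± 0.19 (SE, 95% interval -0.78 to 0.25, edgeR adjusted p = 0.278). The interval holds both no change and a log2 fold change as low as -0.78. Its coefficient of variation, 11.1% in knockout and 21.8% in wild type, was the largest of the 8 genes in both genotypes. Without wild-type replicate 3 the log2 fold change was -0.08 (edgeR adjusted p = 0.644), and without wild-type replicate 1 it was -0.40 (adjusted p = 0.0477).

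NID1 (ENSBTAG00000007244, chromosome 28, 8687268 to 8784180, minus strand) encodes nidogen, which links laminin to collagen IV. It had 0 of 108501400 counts over the 6 libraries, which allows a level of up to 0.0277 CPM (3 counts over all libraries, counting error only). No difference between the genotypes could be tested for it, and the files do not show whether the 0 is a lack of this RNA or comes from how the gene was annotated or counted. NID2, the other nidogen gene and no member of the set, stood at 199 ± 7.96 CPM in knockout cells and 22.5 ± 0.873 CPM in wild type (n = 3 each), an 8.84-fold rise with an edgeR adjusted p = 2.44e-18.

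**Figure D3:**
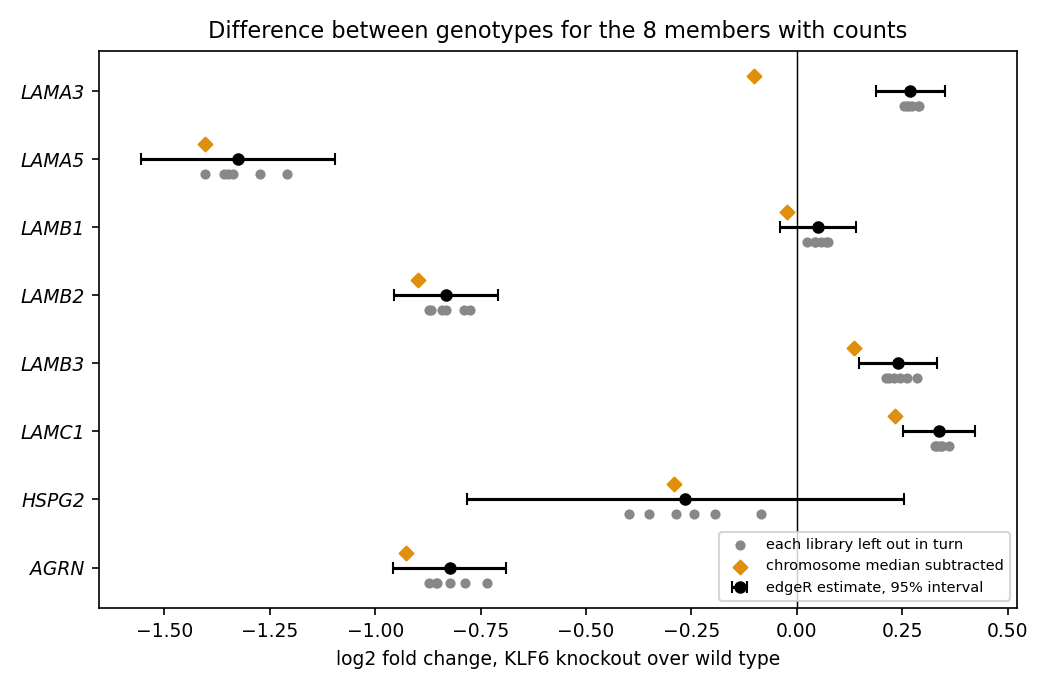
Log2 fold change of KLF6 knockout over wild type (horizontal axis) for the 8 genes with counts. Black points and bars give the edgeR estimate and its 95% interval, grey points the estimates with each of the 6 libraries left out in turn, and orange diamonds the estimate less the median of the gene's chromosome. LAMA5, LAMB2 and AGRN stay below 0 throughout, LAMB3 and LAMC1 stay above 0, the LAMA3 diamond lies at -0.10, and the HSPG2 interval is the widest.

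The spread among wild-type libraries differed between the genes. Wild-type replicate 3 stood apart from its group over the whole table, with a variance of 8.67 and 8.82 times pure counting against replicates 1 and 2, against 2.23 to 2.89 times for all other pairs of replicates. Among the 8 genes it was 1.40 times the mean of wild-type replicates 1 and 2 for HSPG2, 1.25 times for LAMA5 and 1.19 times for AGRN, but 1.00 times for LAMA3, beside a median of 1.00 over all tested genes. For HSPG2 only 4.51% of all tested genes had a higher ratio. The falls of LAMA5 and AGRN did not rest on that library, since without it their log2 fold changes were -1.21 and -0.74. The members as a whole held 0.832% to 0.856% of the counts of a knockout library and 0.805% to 0.910% of the counts of a wild-type library, and total counts ranged from 17512892 to 18724879 per library.

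By level per length, the order in knockout libraries ran from LAMB3 (702 CPM per kilobase) over LAMA3 (306), LAMB1 (116), LAMC1 (106), AGRN (74.6), LAMA5 (29.5) and HSPG2 (23.1) to LAMB2 (13.3). In wild-type libraries LAMB3 (595), LAMA3 (254), AGRN (132) and LAMB1 (112) led, followed by LAMC1 (83.8), LAMA5 (74.0), HSPG2 (27.7) and LAMB2 (23.7). AGRN thus stood above LAMB1 in wild type and below both LAMB1 and LAMC1 in knockout. In wild type the per-length ranges of LAMC1 (82.3 to 86.4) and LAMA5 (65.4 to 85.3) overlapped. Those of HSPG2 (22.2 to 34.2) and LAMB2 (22.3 to 25.6) overlapped too. Within each wild-type library, however, LAMC1 lay above LAMA5. HSPG2 lay below LAMB2 in wild-type replicate 1 and above it in replicates 2 and 3. In knockout libraries the ranges of no neighbours in this order overlapped.

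The patterns over the 6 libraries were compared by the distance between log2 CPM values centred on each gene's mean, among 95 other tested genes of the lists. Among the members, LAMA3 and LAMB3 lay 0.13 apart, as did LAMB2 and AGRN, and for the LAMB2 and AGRN pair the collagen receptor gene DDR1 was also near (0.15 from LAMB2 and 0.13 from AGRN). LAMB3 lay nearest to COL4A5 (0.09), and LAMA3 to POMT2 (0.09) and COL4A5 (0.09). LAMC1 lay nearest to SDC4 (0.09), LAMB1 to COLGALT1 (0.07) and ITGB1 (0.07), LAMA5 to COL17A1 (0.32) and HSPG2 to DST (0.37). These distances describe 6 libraries in 2 groups, and 74.6% of all tested genes differed between the groups, so near neighbours are to be found for most genes.

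The proteins that hold the laminin sheet were read from a partial set of genes. Of 10 basement membrane collagen genes, 7 were tested, of which 3 rose and 4 fell. Beside this, 37.1% of all tested genes rose and 37.6% fell. COL4A1 and COL4A2, the chains of the most widespread collagen IV network, had 2 and 33 counts over the knockout libraries and 0 and 5 over the wild-type libraries, and the same limit applies to their low counts. COL4A3 stood at 3.13 ± 0.544 CPM in knockout cells and 0.0913 ± 0.0629 CPM in wild type, and COL15A1 at 119 ± 5.50 CPM in knockout cells and 28.2 ± 0.754 CPM in wild type (31.9-fold and 4.22-fold higher). The COL4A3 fold rests on 5 wild-type counts, and without wild-type replicate 3 its fold change was over 1.5 times larger, at 5.66 on the log2 scale. COL17A1, the hemidesmosomal collagen that binds the LAMA3 trimer, fell 2.17-fold, to 309 ± 10.6 CPM in knockout, against 670.3 ± 33.3 CPM in wild type (edgeR adjusted p = 3.02e-13). Of 19 other basement membrane glycoprotein genes, 11 were tested, of which 4 rose, among them FBLN2 (1.27), and 4 fell, among them VWA1 (-1.56). Their called share was 72.7%, beside 74.6% of all tested genes.

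The genes for laminin receptors went both ways. Of 17 receptor and hemidesmosome genes, all tested, 7 rose and 7 fell, with a median log2 fold change of 0.04. The called share was 82.4%, beside 74.6% of all tested genes, and whether it departs from that was not tested. BCAM, a receptor for LAMA5, stood at 815 ± 27.0 CPM in knockout cells and 221 ± 14.6 CPM in wild type, a 3.68-fold rise, opposite to LAMA5 itself. SDC1, a heparan sulfate proteoglycan of the cell surface, rose 2.96-fold and the integrin gene ITGA1 4.18-fold. PLEC, the plectin that ties hemidesmosomes to keratin filaments, fell 3.80-fold, to 245 ± 23.4 CPM in knockout, against 933 ± 192 CPM in wild type. Its wild-type replicate 3 was 1.38 times the mean of replicates 1 and 2, and without it the log2 fold change was -1.75. SDC2 and ITGA7 fell too (log2 fold changes -1.38 and -3.40), with ITGA7 at 6 counts in knockout and 68 in wild type. PLEC and SDC2 lie on chromosome 14, whose 301 tested genes had a median log2 fold change of -0.82. The part of that chromosome-wide difference in their falls was not tested. BCAM lies on chromosome 18 and ITGA1 on chromosome 20, whose tested genes had median log2 fold changes of 0.32 and 0.48. The part of these in the rises of BCAM and ITGA1 was not tested either. ITGA6 and ITGB4, the integrin pair that binds the LAMA3 trimer, fell by 0.59 and 0.57 on the log2 scale. ITGB4 lies on chromosome 19, with a median of -0.25, and the part of this in its fall was not tested. The dystroglycan gene DAG1 did not pass the test (log2 fold change 0.04 ± 0.06 SE).

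Among the enzymes that finish these proteins, 8 of 12 tested dystroglycan glycosylation genes rose and 1, LARGE2, fell (median 0.44). The called share was 75%, beside 74.6% of all tested genes. Over all tested genes 37.1% rose and 37.6% fell, and whether this list or those below depart from that was not tested. POMGNT2 and RXYLT1 were among those that rose, at 2.83-fold and 2.03-fold. Of 15 tested heparan sulfate genes, whose products modify perlecan and agrin, 8 rose and 5 fell (median 0.27). B4GALT7, which builds the linker to the core protein, rose by a log2 fold change of 1.49, while SULF1, which trims sulfate groups, fell by 2.13 on the log2 scale. SULF1 lies on chromosome 14, whose 301 tested genes had a median log2 fold change of -0.82, and the part of this in its fall was not tested. Of 12 tested genes for collagen IV folding, secretion and crosslinking 8 rose and 1 fell (median 0.43), and LOXL2 had the largest rise at 1.91. Of 13 tested protease and inhibitor genes 8 rose and 4 fell (median 0.48). MMP3 rose by a log2 fold change of 2.80, and CTSL had 0 counts over the knockout libraries and 165 over the wild-type libraries, at least 54.1-fold lower.

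**Figure D4:**
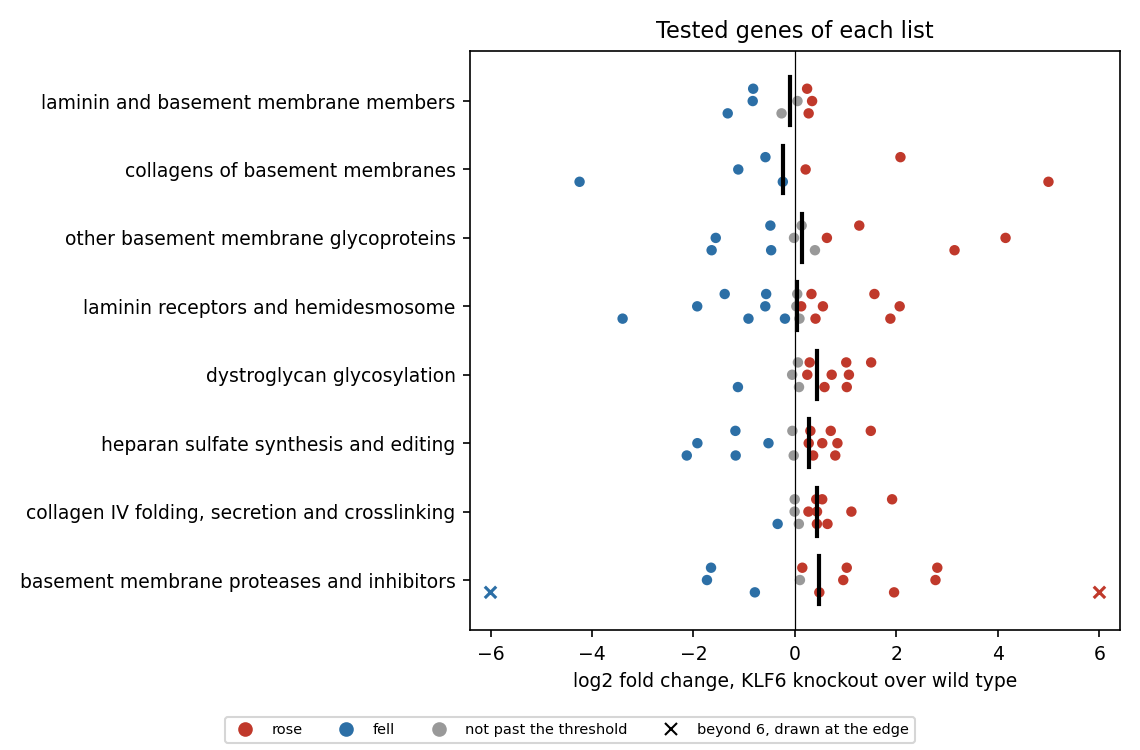
Log2 fold change of KLF6 knockout over wild type (horizontal axis) of every tested gene in the laminin set and in 7 lists of related genes. Each point is 1 gene, red where it rose, blue where it fell and grey where it did not pass the threshold. Black bars are list medians, crosses at the edge are genes beyond 6, and the laminin genes lie between -1.33 and 0.34.

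Markers of mammary epithelium were present in both genotypes. Beside the marker counts given here, 37.1% of all tested genes rose and 37.6% fell. Summed over 5 luminal markers, the level was 3909 to 4066 CPM in knockout libraries and 10780.4 to 12115 CPM in wild-type libraries, and 3 of the 5 fell. Over 7 basal and myoepithelial markers it was 2656 to 2731 CPM in knockout cells and 5204 to 5287 CPM in wild type, with 1 that rose and 4 that fell among 5 tested. Over 10 fibroblast markers, the sum was 246 to 259 CPM in knockout cells and 1055 to 1251 CPM in wild type, mostly from DCN, with 1 that rose and 4 that fell among 7 tested. Endothelial markers summed to 32.3 to 33.9 CPM in knockout cells and 4.55 to 5.96 CPM in wild type (2 of 4 tested rose, 2 fell), with KDR and CLDN5 at 0, and pericyte markers to 50.7 to 51.2 CPM in knockout cells and 96.2 to 118 CPM in wild type (1 of 3 tested rose, 2 fell), with RGS5, KCNJ8 and DES at 0. Adipocyte markers summed to 6.43 to 8.64 CPM in knockout cells and 4.40 to 4.86 CPM in wild type (1 of 3 tested rose, 1 fell), with ADIPOQ at 0. Leukocyte markers summed to 18.9 to 21.4 CPM in knockout cells and 10.02 to 11.4 CPM in wild type (2 of 3 tested rose), with PTPRC and ITGB2 at 0. Schwann cell markers summed to 62.7 to 65.4 CPM in knockout cells and 9.12 to 14.0 CPM in wild type, nearly all from S100B, the 1 tested, which rose 5.54-fold, with SOX10 at 0. The part of these marker differences in the changes of the laminin genes was not tested, and in such bulk RNA a lower share of 1 kind of cell and less RNA per cell cannot be told apart.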

How the data were processed

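RNA of 3 KLF6 knockout and 3 wild-type libraries was analysed from the authors' deposited table of raw counts per gene. The tools named in the submitters' processing notes are HISAT2 2.0.5 and featureCounts 1.5.0-p3. With genome build, annotation version and strand setting not given in the sources used here, reads of overlapping loci are less certain. Of the 9 genes, only LAMA3 overlaps a gene with at least 10 counts (ENSBTAG00000051310, opposite strand). ITGA1, LARGE2 and other genes of the lists, among them COL7A1, which is marked as a pseudogene, also overlap such genes. The authors' deposited table of their own comparison holds a normalized signal per library, log2 fold changes and p-values for 9532 genes. The largest adjusted p in it, by the authors' own test, is 0.0499, so it holds no gene above 0.05. Of the 9 genes, 6 are listed in the authors' deposited table, with log2 fold changes from -1.31 (LAMA5) to 0.35 (LAMC1). LAMB1, HSPG2 and NID1 are absent, which does not tell a gene not called from one not tested.

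Counts were tested with edgeR 4.0.16 (R 4.3.3), using TMM scaling, filterByExpr (minimum count 10, minimum total 15), robust quasi-likelihood fits and Benjamini-Hochberg adjustment at 0.05 over 13390 genes. The code was tested on simulated data. Each SE was worked back from the test's F, and 95% intervals use its t distribution. Alternatives used DESeq2 1.42.0 and limma 3.58.1. Named were KLF6, the 9 genes, other laminin chains, and from each related list genes among the 3 largest changes per direction. COL4A1, COL4A2, ITGA6, ITGB4, DAG1 and S100B fall outside that rule and were chosen after their values were seen, and some genes of the lists are not reported here. The genes and lists were chosen with earlier results of these data known.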

Additional observations from a re-analysis of the deposited data

How the results depend on the processing

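Of 120 values of the 8 tested genes under the alternatives, 113 kept their direction and their side of the threshold or moved by less than the replicate spread. With the median of its chromosome subtracted, LAMA3 stood at -0.10 in place of 0.27, LAMB1 at -0.023, LAMB3 at 0.14 and LAMC1 at 0.23. With library size only as the scale, LAMB1 stood at -0.00062 (adjusted p = 0.991) and DAG1 at -0.0054. HSPG2 passed the threshold with a replicate block (-0.25, edgeR adjusted p = 0.00653), as it did without wild-type replicate 1 (-0.40), and the count of genes that fell was then 4. The block changed no other call among the 8 genes, and the causes were not tested. Libraries of the genotypes share only a replicate number, and same-numbered ones deviated from their group means with correlations of -0.04, 0.07 and -0.02. Not every library correlated best with its own number.

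With each library left out in turn, log2 fold changes ranged from 0.25 to 0.29 for LAMA3, -1.40 to -1.21 for LAMA5, 0.02 to 0.07 for LAMB1, -0.87 to -0.77 for LAMB2, 0.21 to 0.28 for LAMB3, 0.33 to 0.36 for LAMC1, -0.40 to -0.084 for HSPG2, -0.87 to -0.74 for AGRN and -0.0040 to 0.10 for DAG1. Over all genes, 4746 to 5115 rose and 4746 to 5019 fell. Of 208 counts of the other lists, 203 stayed within 1.5 times, and LAMA4 passed the threshold where it passed the filter. With counts not divided by length, LAMA3 and LAMA5 made up 91.9% and 8.12% of the alpha chain counts in knockout and 79.0% and 21.0% in wild type. On that scale LAMB1, LAMB2 and LAMB3 made up 19.6%, 2.05% and 78.4% of the beta chain counts in knockout and 21.3%, 4.10% and 74.6% in wild type. NID1, LAMA1, LAMA4 and LAMC3 had too few counts to be tested under the main filter.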
